A study of Mus musculus with 6 samples.

Results

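The 29 genes described here are the genes of cholesterol synthesis and handling chosen by name from the pathway, among the 43548 gene identifiers of an mRNA sequencing table from Met-1 TripZ-200c cells. Met-1 is a mouse mammary carcinoma line of the FVB/nJ strain, derived from a late-stage tumor of the MMTV-PyMT model, and TripZ-200c is a lentiviral vector that expresses the miR-200c precursor and a red fluorescent protein when doxycycline (Dox) is added. Cells were cultured for 48 h without Dox (vehicle) or with 1 µg/mL Dox, in medium with serum, and 3 libraries were sequenced per group. The TripZ-200c cells were a single clone that had been sorted for tight induction, and cells with the empty vector were not analysed here, so an effect of Dox and an effect of miR-200c cannot be told apart. The labels do not say whether the 3 libraries of a group came from separate cultures, so the p-values measure the spread between these libraries, which may be technical.

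Cells make cholesterol from acetyl-CoA, first through mevalonate to the isoprenoid farnesyl diphosphate, and then through squalene and lanosterol to the finished sterol. Transcription of most of the enzymes is driven by the SREBP proteins, which SCAP carries out of the endoplasmic reticulum when sterol is scarce and which the INSIG proteins hold back when it is plentiful. Cholesterol that arrives in lipoproteins is released in the lysosome, exported from it by NPC2 and NPC1, stored as ester by SOAT1 and sent out of the cell by the ABC transporters. The members were therefore read as 8 enzymes of the mevalonate segment, 10 enzymes of the sterol segment, 5 regulators and 6 genes of transport, storage and efflux.

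The table gave each gene as FPKM, a fragment count scaled for transcript length and library size, and how many reads each value rests on is not known. Summed FPKM was 800267 to 815139 per library, and depth relative to the first library without Dox ran from 0.917 to 1.49. The induction was checked on the miR-200c targets Zeb1 and Zeb2, repressors of epithelial genes. Zeb1 fell from 41.8 ± 0.682 to 21.2 ± 2.05 FPKM (mean ± SD, n = 3 per group) and Zeb2 from 29.3 ± 1.43 to 8.29 ± 0.661 FPKM, with limma adjusted p of 3.62e-04 and 4.48e-05. Of the 6 epithelial markers, Krt18 rose from 93.2 ± 2.78 to 386 ± 19.6 FPKM and Epcam from 0.128 ± 0.0394 to 4.06 ± 0.225 FPKM. Cdh1, Krt8 and Krt14 had means under 1 FPKM in both groups, and Krt5 was listed at 0. At these low levels Cdh1 rose from 0.0585 ± 0.018 to 0.828 ± 0.361 FPKM (limma without the filter, adjusted p = 0.0125). Krt8 had 0.262 ± 0.11 and 0.736 ± 0.164 FPKM without overlap between groups (same fit, adjusted p = 0.0972), and the groups overlapped in Krt14. Without Dox, Krt18 was thus the only epithelial marker above 1 FPKM in these mammary carcinoma cells. The summed leukocyte markers did not exceed 0.326 FPKM in any library. Among all 12879 genes tested, 1935 (15.0%) passed an adjusted p of 0.05, 909 higher with Dox (7.06%) and 1026 lower (7.97%).

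The mature miR-200c-3p, whose precursor the vector carries, is encoded in the mouse genome at chr6:124718324-124718346 on the minus strand (GRCm38.p6) and is shown because its seed, bases 2 to 8 in capitals, defines the sites searched below.
mmu-miR-200c-3p: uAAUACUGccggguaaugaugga

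Of the 29 cholesterol genes, 28 passed the filter of a mean of at least 1 FPKM, and 4 of these passed the test between cells without and with Dox. Dhcr7, the last reductase of synthesis, was higher with Dox. Npc1 and Npc2, which move cholesterol out of the lysosome, and Abca1, which exports it from the cell, were lower. 1 higher call among 28 stands beside 7.06% of all genes, and 3 lower calls among 28 stand beside 7.97%. The median log2 fold change of the 28 genes was 0.06 (with Dox over without, on log2(FPKM + 0.1)), and that of all genes tested was 0.00387. In 7 of the 28 genes the FPKM of the 2 groups did not overlap, namely Hmgcs1, Idi1, Dhcr7 and Insig2 on the higher side and Npc1, Npc2 and Abca1 on the lower, against 35.0% of all genes. All calls on the lower side were in transport, storage and efflux, where 3 of 5 tested genes fell, and none of the 5 regulators and 1 of the 18 enzymes passed. No test of a difference between these groups was run.

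**Figure D1:**
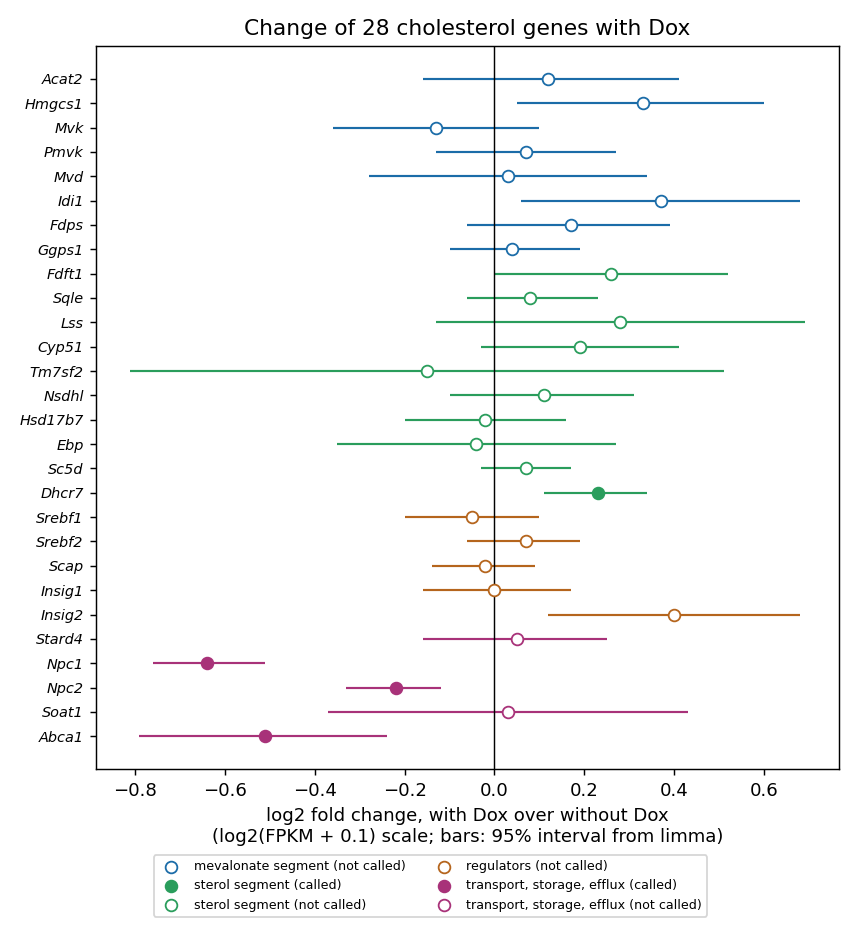
Log2 fold change of the 28 tested cholesterol genes, with Dox over without Dox, on log2(FPKM + 0.1), in pathway order from top to bottom. Bars are 95% intervals from limma and filled points passed an adjusted p of 0.05; Npc1, Npc2 and Abca1 lie to the left of 0 and Dhcr7 to the right.

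Across the genes, levels spanned more than an order of magnitude, and FPKM, being scaled to transcript length, allows the levels of different genes to be set side by side. Dhcr7 had the highest mean over the 6 libraries, 129 FPKM, followed by the transcription factors Srebf1 with 93.2 FPKM and Srebf2 with 88.4 FPKM and by squalene epoxidase Sqle with 86.9 FPKM. Srebf1 and Srebf2, and likewise Srebf2 and Sqle, had overlapping ranges in both groups, while Dhcr7 lay above Srebf1 in all libraries of both groups. Read library by library, Srebf1 was above Srebf2 in each library without Dox but with Dox only in replicate 1. Differences between genes were not tested. At the other end were Abca1 with 12 FPKM, Idi1 with 5.53 FPKM and Tm7sf2 with 5.19 FPKM. Abcg1, the other ABC exporter of the list, had a mean of 0.0639 FPKM, was listed at 0 in 5 libraries and at 0.383 FPKM in replicate 2 without Dox, and was not tested.

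**Figure D2:**
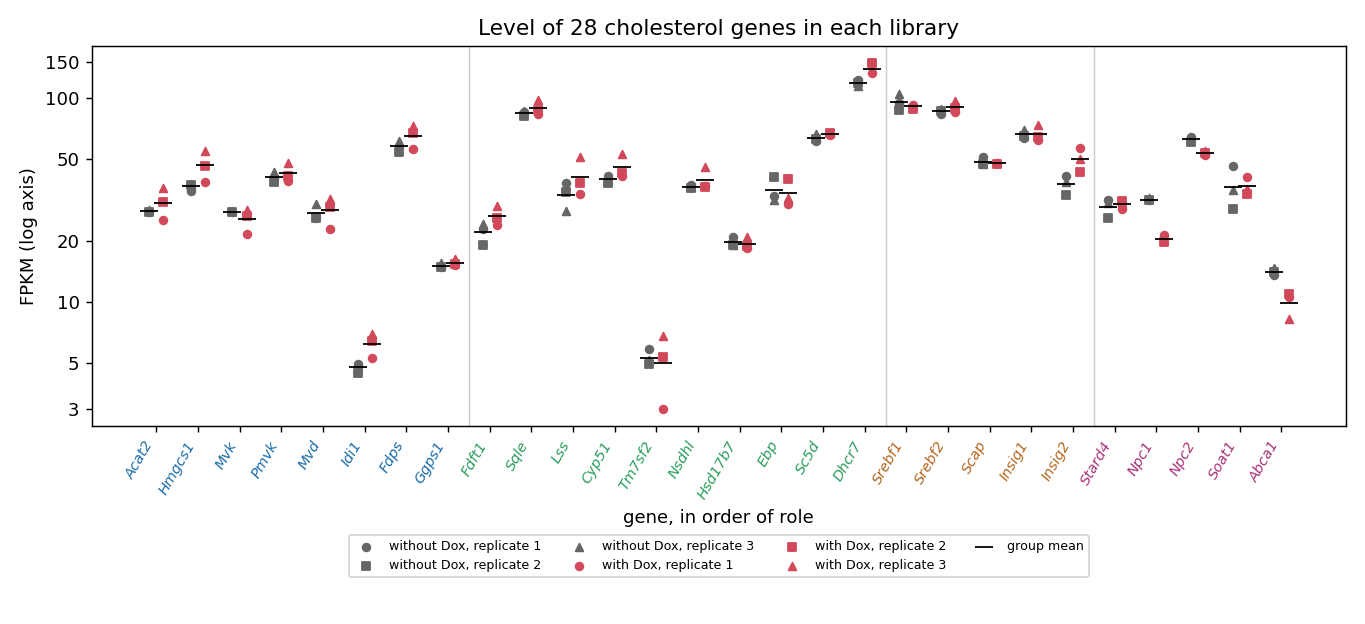
FPKM (log axis) of the 28 tested cholesterol genes in pathway order, each library as a point (grey without Dox, red with Dox, shape by replicate number) with the group mean as a bar; name colors and vertical lines separate the 4 roles. Dhcr7 lies highest in both groups, and Npc1 shows the widest gap relative to the spread within groups.

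Npc1 is the multispanning membrane protein of late endosomes and lysosomes that passes cholesterol on to other membranes. Its FPKM was 31.5, 31.7 and 32.2 in the libraries without Dox and 21.2, 19.6 and 20.4 in those with Dox. All 3 libraries with Dox lay far below all 3 without, with little spread inside either group. The log2 fold change was -0.64 (SE 0.0529, 95% interval -0.76 to -0.51, limma adjusted p = 5.45e-04), or 1.56-fold lower with Dox, and Npc1 passed in all 15 refitted alternatives, with adjusted p between 3.91e-04 and 0.00601. In the annotation Npc1 overlaps Gm15956 (0.335 FPKM) and Rmc1 on the opposite strand. The library kit keeps the strand, but whether counting used it was not stated.

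Npc2 is the small soluble lysosomal protein that hands cholesterol to NPC1. It had 64.7, 60.5 and 63.5 FPKM without Dox and 52.7, 53.7 and 55.1 FPKM with Dox. The groups did not overlap, and the difference was smaller than that of Npc1, with a log2 fold change of -0.22 (SE 0.0437, 95% interval -0.33 to -0.12, limma adjusted p = 0.0163). The call needed each of 4 libraries, since without replicate 1 or 3 without Dox, or replicate 1 or 2 with Dox, the adjusted p was 0.0507, 0.0533, 0.0544 and 0.0551.

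Abca1 transfers cholesterol and phospholipid to apolipoproteins outside the cell and is a classical target of the LXR receptors. Its FPKM was 13.5, 14.0 and 14.7 without Dox and 10.6, 10.9 and 8.23 with Dox, with replicate 3 with Dox the lowest. The groups did not overlap, and the log2 fold change was -0.51 (SE 0.117, 95% interval -0.79 to -0.24, limma adjusted p = 0.0287), or 1.43-fold lower. The call held in 7 of 15 alternatives. It was lost when replicate 1, 2 or 3 without Dox was left out (adjusted p = 0.0592, 0.0759 and 0.086) and when replicate 1 with Dox was left out (0.0501), and its highest adjusted p was 0.0979.

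The remaining genes of this role did not pass. Stard4, a cytosolic sterol carrier, had 29.3 ± 3.10 FPKM without Dox and 30.2 ± 1.45 FPKM with Dox, a log2 fold change of 0.05 (95% interval -0.16 to 0.25, adjusted p = 0.775). Soat1, which esterifies cholesterol for storage, had 46.6, 28.6 and 35.3 FPKM without Dox and 41.0, 34.0 and 36.0 FPKM with Dox. The Soat1 values without Dox enclosed all values with Dox, and the log2 fold change was 0.03 with a wide 95% interval of -0.37 to 0.43. Summed over the 6 genes of the role, the libraries without Dox had 188, 161 and 176 FPKM and those with Dox 154, 149 and 150 FPKM. The sums did not overlap and were a description without a test.

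Seed matches were searched in the longest annotated 3′ UTR of each gene (GENCODE, GRCm38) as the letters CAGTATT, complementary to bases 2 to 8 of miR-200c-3p, on the transcribed strand. Of the 29 members 3 (10.3%) held a match, compared with 1723 of 10792 tested genes with a UTR (16.0%), although the median UTR was longer in the members, 1553 against 1191 bases. The 3 were Npc1, with 1 match followed by an A in a UTR of 1227 bases, and the enzymes Sqle and Hsd17b7, with 1 match each, neither followed by an A. Npc2 and Abca1 held no match, and Zeb1 and Zeb2 held 5 each. The site of Npc1, which passed the test, is not shown. Sqle and Hsd17b7 did not pass, and their sites are shown with the match in capitals because these members hold a match.
Sqle: tcttttgatttCAGTATTtggggtgactca
Hsd17b7: tctgttagaagCAGTATTtctcacctttac
The Sqle match began at base 222 of its UTR on chromosome 15 and the Hsd17b7 match at base 2579 of its UTR on chromosome 1. Sqle went from 84.3 ± 2.70 to 89.4 ± 7.09 FPKM (log2 fold change 0.08, limma adjusted p = 0.439) and Hsd17b7 from 19.6 ± 1.12 to 19.3 ± 1.40 FPKM (-0.02, 0.873). A match is a run of letters in a reference UTR and says nothing of binding.

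In the mevalonate segment none of the 8 enzymes passed, while the estimates of 7 lay above 0 and their median log2 fold change was 0.10. Hmgcs1, which condenses acetyl units into HMG-CoA, had 35.1, 37.5 and 38.0 FPKM without Dox and 38.9, 46.2 and 54.9 FPKM with Dox. All values with Dox were above all values without, but the libraries with Dox spread far more widely than those without. The log2 fold change was 0.33 (SE 0.118, 95% interval 0.05 to 0.60, limma adjusted p = 0.118). Without replicate 1 with Dox, its lowest library of that group, the log2 fold change was 0.45 and the adjusted p 0.0298.

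Idi1, the isomerase that makes the reactive isoprenoid unit, had the same pattern at a low level, with 4.95, 4.51 and 4.92 FPKM without Dox and 5.34, 6.42 and 7.01 FPKM with Dox. Its groups did not overlap either, and the log2 fold change of 0.37 (SE 0.131, 95% interval 0.06 to 0.68) had a limma adjusted p of 0.109. Fdps, which joins the units into farnesyl diphosphate, had 58.0 ± 3.51 and 65.4 ± 8.37 FPKM (log2 fold change 0.17, adjusted p = 0.315), and Acat2, which joins acetyl-CoA units, had 27.8 ± 0.348 and 30.7 ± 5.54 FPKM (0.12, 0.56). The mevalonate kinases Mvk and Pmvk and the decarboxylase Mvd had log2 fold changes of -0.13, 0.07 and 0.03, with adjusted p of 0.447, 0.659 and 0.908. Ggps1, which diverts farnesyl diphosphate to geranylgeranyl diphosphate, was the steadiest, with 15.1 ± 0.391 and 15.6 ± 0.521 FPKM and a 95% interval of -0.10 to 0.19.

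In the sterol segment 1 of 10 enzymes passed, and the median log2 fold change was 0.09. Dhcr7, which reduces the last double bond to give cholesterol, had 123, 119 and 115 FPKM without Dox and 132, 148 and 138 FPKM with Dox. All 3 libraries with Dox lay above all 3 without. The log2 fold change was 0.23 (SE 0.0506, 95% interval 0.11 to 0.34, limma adjusted p = 0.027), or 1.17-fold. The call held in 8 of 15 alternatives, and leaving out replicate 2 or 3 without Dox, or 2 or 3 with Dox, gave adjusted p of 0.0759, 0.0813, 0.0632 and 0.0757.

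Squalene synthase Fdft1 had 22.9, 19.1 and 24.0 FPKM without Dox and 23.8, 25.7 and 29.4 FPKM with Dox. The groups overlapped only through replicate 1 with Dox and replicate 3 without, and the log2 fold change was 0.26 (95% interval 0.00 to 0.52, limma adjusted p = 0.173). Lanosterol synthase Lss had 38.5, 34.5 and 27.9 FPKM without Dox and 33.7, 38.3 and 51.5 FPKM with Dox, and Cyp51, which strips a methyl group from lanosterol, had 41.5, 38.2 and 40.1 FPKM and 41.5, 43.1 and 52.9 FPKM. In both genes replicate 3 with Dox stood above the other 5 libraries, and the log2 fold changes of 0.28 and 0.19 had adjusted p of 0.344 and 0.235.

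The other enzymes of the sterol segment were closer to 0. Nsdhl and Hsd17b7, which act in the removal of the next methyl groups, had log2 fold changes of 0.11 and -0.02, the isomerase Ebp -0.04 and the desaturase Sc5d 0.07, with adjusted p between 0.357 and 0.873. The sterol reductase Tm7sf2 was the least precise, with 5.87, 4.96 and 5.18 FPKM without Dox and 3.00, 5.36 and 6.78 FPKM with Dox. Its values with Dox lay on both sides of those without, and its 95% interval ran from -0.81 to 0.51. Of the 24 members that did not pass, 19 had a 95% interval inside a 1.5-fold change in either direction, so for those larger changes are outside the interval.

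The regulators varied little, with the exception of Insig2. Srebf1 had 95.1 ± 8.12 and 91.4 ± 2.32 FPKM (log2 fold change -0.05, limma adjusted p = 0.631) and Srebf2 86.2 ± 2.42 and 90.6 ± 5.64 FPKM (0.07, 0.447). Scap, the escort, had 48.7 ± 2.34 and 47.9 ± 0.289 FPKM (-0.02, 0.791). The 95% intervals were -0.20 to 0.10 for Srebf1, -0.06 to 0.19 for Srebf2 and -0.14 to 0.09 for Scap.

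The INSIG pair differed in estimate. Insig1, itself an SREBP target, had 63.7, 65.4 and 69.8 FPKM without Dox and 62.1, 64.2 and 73.3 FPKM with Dox, a log2 fold change of 0.00 (95% interval -0.16 to 0.17, limma adjusted p = 0.989). Insig2 had 41.6, 33.3 and 38.9 FPKM without Dox and 56.9, 43.3 and 50.3 FPKM with Dox. The Insig2 groups did not overlap, but the gap between the highest library without Dox and the lowest with Dox was narrow, and the log2 fold change of 0.40 (SE 0.118, 95% interval 0.12 to 0.68) missed the threshold with an adjusted p of 0.0661. Without replicate 2 with Dox, the lowest of its group, Insig2 passed with 0.0418, and without any other single library it did not. The difference between Insig1 and Insig2 was not tested.

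The enzymes varied together among the libraries with Dox, a pattern that was chosen for description after the values were seen. Of the 18 enzymes of both segments, 17 (94.4%) had their lowest value with Dox in replicate 1 and 15 (83.3%) their highest in replicate 3, whereas over all genes replicate 1 was lowest in 41.6% and replicate 3 highest in 31.1%. The median enzyme was -0.01, 0.11 and 0.27 log2 units from the mean without Dox in replicates 1, 2 and 3 with Dox, while the 3 libraries without Dox lay at 0.01, -0.03 and 0.03. The summed FPKM of the 18 enzymes was 704, 687 and 702 without Dox and 693, 775 and 837 with Dox. By median and sum, replicate 1 with Dox thus lay within the range of the untreated libraries, and replicate 3 stood highest. Many single enzymes in replicate 1 with Dox nevertheless lay outside their own range without Dox. Acat2, Mvk, Mvd, Tm7sf2, Hsd17b7 and Ebp lay below it, and Hmgcs1, Idi1 and Dhcr7 above it.

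The median log2 fold change of the enzymes, 0.09 in all libraries, was 0.17 without replicate 1 with Dox and 0.02 without replicate 3 with Dox, with 17 and 11 of 18 estimates above 0. The relative depths of replicates 1, 2 and 3 with Dox were 0.983, 1.49 and 1.11. The shallowest, replicate 1, had the lowest enzyme sum of the group, and the deepest, replicate 2, did not have the highest. In the fatty acid enzymes, which share SREBP control, replicate 3 was also the highest with Dox in 11 of 15 genes (73.3%), but their median there was -0.01 log2 units from the mean without Dox, with -0.05 and -0.06 in replicates 1 and 2, and so not above the libraries without Dox. The part of any library difference in these levels was not tested.

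**Figure D3:**
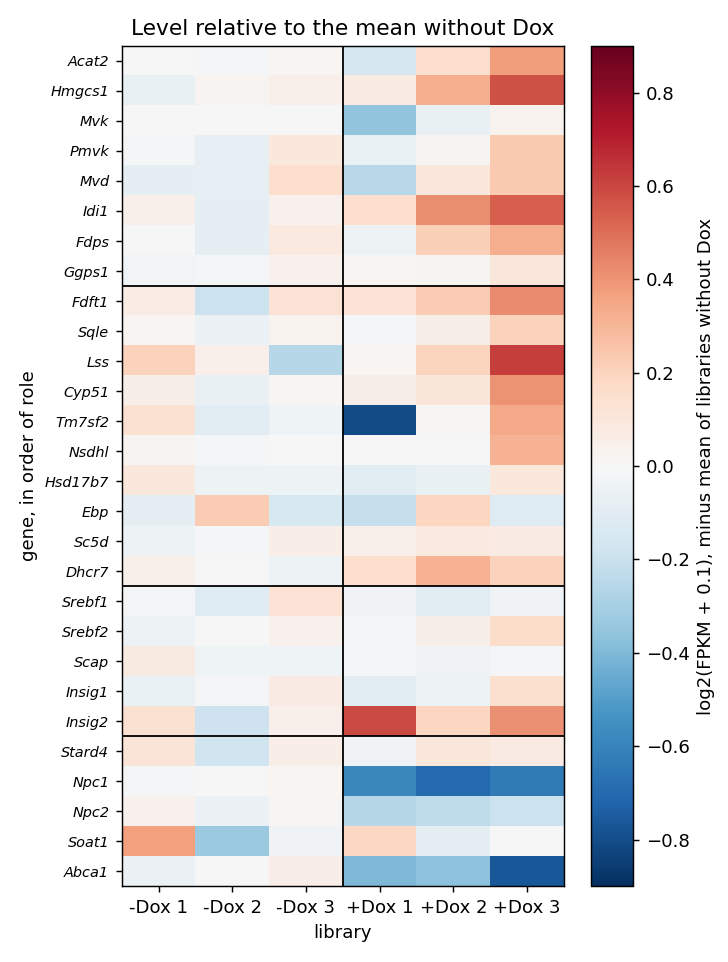
Log2(FPKM + 0.1) of the 28 tested cholesterol genes in each library, as the difference from the mean of the libraries without Dox (red higher, blue lower), with horizontal lines between the 4 roles. Among the libraries with Dox, enzyme rows are mostly reddest in replicate 3 and lowest in replicate 1, where they run from pale red to blue. Npc1, Npc2 and Abca1 are blue in all 3 libraries with Dox.

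Promoter windows of RefSeq (GRCm38.p6, 250 bases before to 50 after an annotated start) were found for 23 of the 29 members, with 31 windows in all. The sterol regulatory element was searched only in the form TCACNCCAC, on both strands. Variants of these letters were not counted, so a window without a match may still hold such an element. That form occurred in 1 of the 31 windows (3.23%) and in 1.24% of all 32851 windows, and the single match was in Hmgcs1. The letters CCAAT, bound by NF-Y in many sterol genes, occurred on either strand in 67.7% of the member windows and 37.4% of all windows, the GC box GGGCGG in 80.6% and 35.7%, and the E-box CACGTG in 22.6% and 7.15%. The set of all windows was not limited to genes tested here, and a gene with several windows counts more than once in each share. None of these 4 letter sets contains another.

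The windows of 4 genes are shown on the strand of the gene. That of Hmgcs1 is shown because it held the searched form of the element, and those of Dhcr7, Npc2 and Abca1 because these genes passed the test. Npc1, which also passed, was among the members without a window. Capitals mark TCACNCCAC and CCAAT or their reverse complements. For Dhcr7, which has 3 windows, the only window with CCAAT was chosen, and FPKM per gene does not tell which start was used.
Hmgcs1, chr13:119690101-119690400, plus strand: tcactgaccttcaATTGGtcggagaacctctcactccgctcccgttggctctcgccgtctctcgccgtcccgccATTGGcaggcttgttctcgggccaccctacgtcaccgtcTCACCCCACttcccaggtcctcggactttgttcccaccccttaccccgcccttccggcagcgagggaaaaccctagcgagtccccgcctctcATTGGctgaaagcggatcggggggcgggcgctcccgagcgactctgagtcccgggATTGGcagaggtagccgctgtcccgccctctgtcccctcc
Dhcr7, chr7:143829964-143830263, plus strand: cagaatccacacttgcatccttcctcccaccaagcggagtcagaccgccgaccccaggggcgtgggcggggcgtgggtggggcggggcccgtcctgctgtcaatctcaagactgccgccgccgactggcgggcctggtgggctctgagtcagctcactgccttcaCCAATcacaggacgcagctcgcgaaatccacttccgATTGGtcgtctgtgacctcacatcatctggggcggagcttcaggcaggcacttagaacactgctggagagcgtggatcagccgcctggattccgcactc
Npc2, chr12:84773063-84773362, minus strand: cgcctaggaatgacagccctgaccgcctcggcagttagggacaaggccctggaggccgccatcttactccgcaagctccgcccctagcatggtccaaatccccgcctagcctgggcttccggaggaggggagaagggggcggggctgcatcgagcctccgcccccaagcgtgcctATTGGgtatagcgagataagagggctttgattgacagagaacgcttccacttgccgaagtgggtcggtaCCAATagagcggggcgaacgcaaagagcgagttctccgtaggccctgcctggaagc
Abca1, chr4:53159846-53160145, minus strand: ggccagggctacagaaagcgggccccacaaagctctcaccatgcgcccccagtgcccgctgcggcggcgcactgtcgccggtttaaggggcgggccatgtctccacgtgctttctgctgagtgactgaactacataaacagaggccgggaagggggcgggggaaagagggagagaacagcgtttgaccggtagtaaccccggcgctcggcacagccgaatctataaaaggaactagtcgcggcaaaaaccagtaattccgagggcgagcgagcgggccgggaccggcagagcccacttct
The Hmgcs1 window held 4 CCAAT matches and the Dhcr7 and Npc2 windows 2 each, while the Abca1 window held none but did hold the E-box. CCAAT was thus found in a gene that was higher with Dox, in a gene that was lower and in 20 of the 23 members with a window, most of which did not pass. A match describes the letters of the window only.

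Several members share sequence with other loci, which limits what their FPKM can be assigned to. Acat2 shares 65.6% of its longest transcript with Acat3 (1.88 FPKM) and 19.8% with Tcp1 (547 FPKM). Fdft1 shares 33.7% with Gm6781, which rose from 10.8 ± 0.544 to 14.9 ± 1.42 FPKM (limma adjusted p = 0.0166), and 20.9% with Ctsb, which lies on the opposite strand and fell from 233 ± 3.52 to 207 ± 5.87 FPKM (adjusted p = 0.0152). Idi1 shares 22.6% with Gm13502 (12.4 FPKM, above its own level), and Ggps1, Scap, Fdps and Hmgcs1 share between 16.2% and 21.3% with single other loci. Tm7sf2 overlaps Vps51 (33.2 FPKM) on the same strand. The part of this sharing in the values was not tested, and the 4 members that passed had no such partner over 10% of their length.

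Other lipid genes were read from 5 lists of 83 genes, of which 77 were tested, 7 were higher with Dox and 8 were lower, beside 7.06% and 7.97% of all genes. In fatty acid synthesis, which SREBP-1 governs, 1 of 15 tested genes rose and 1 fell. Fasn, the fatty acid synthase, had 669, 634 and 608 FPKM without Dox and 702, 738 and 749 FPKM with Dox (log2 fold change 0.20, limma adjusted p = 0.0228). All Fasn values with Dox were above those without, and the call held in 7 of 15 alternatives. Fads1, a fatty acid desaturase, went from 52.1 ± 0.672 to 41.4 ± 2.22 FPKM (-0.33, adjusted p = 0.0066) and passed in all 15. Of the 12 genes of SREBP processing, Erlin2 rose from 19.5 ± 1.00 to 23.9 ± 0.138 FPKM and Erlin1 fell from 34.3 ± 1.48 to 28.5 ± 1.58 FPKM, with log2 fold changes of 0.29 and -0.27 and adjusted p of 0.0178 and 0.0287. The calls held in 10 and 9 of 15 alternatives, and each was lost when replicate 2 or 3 with Dox or replicate 2 without Dox was left out, Erlin2 also without replicate 1 with Dox (0.0544) and Erlin1 without replicate 3 without Dox (0.0853). The erlins are partners in a complex of the endoplasmic reticulum that holds SCAP and SREBP there.

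Among these 5 lists, sterol transport held the largest differences, with 4 of 25 tested genes higher and 5 lower. Lrp1, a large endocytic receptor for lipoprotein remnants, had 174, 167 and 166 FPKM without Dox and 82.9, 97.9 and 88.7 FPKM with Dox. Vldlr, a receptor for triglyceride-rich lipoproteins, had 33.6, 36.9 and 33.0 FPKM and 19.2, 18.7 and 19.9 FPKM. Both groups of libraries were far apart in both genes, with log2 fold changes of -0.91 and -0.84 and limma adjusted p of 2.33e-04 and 3.50e-04. Of 7 oxysterol-binding proteins tested, Osbpl11 fell from 56.4 ± 0.797 to 41.1 ± 1.86 FPKM (-0.46, adjusted p = 0.00131), Osbp rose from 26.3 ± 1.53 to 34.7 ± 0.567 FPKM (0.40, 0.00501), and Osbpl1a, Osbpl2, Osbpl5, Osbpl8 and Osbpl9 did not pass, with log2 fold changes between -0.11 and 0.20.

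Cav1, the coat protein of cholesterol-rich caveolae, rose from 87.3 ± 1.74 to 149 ± 16.8 FPKM (log2 fold change 0.76, limma adjusted p = 0.0012). Gramd1c, which carries sterol from the plasma membrane to the endoplasmic reticulum, rose from 2.14 ± 0.0354 to 5.0 ± 0.660 FPKM (1.18, 0.00347). Lipa, the lysosomal lipase that frees the cholesterol on which NPC2 and NPC1 act, had 33.9 and 30.8 FPKM (-0.14, 0.139), and Scarb1, a receptor for high-density lipoprotein, 98.5 and 95.5 FPKM (-0.04, 0.681). Neither passed.

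Of the LXR and oxysterol genes 9 of 12 were tested and 1 passed. Nr1h3, which encodes LXR alpha, had 4.35, 4.71 and 5.07 FPKM without Dox and 6.96, 7.62 and 6.39 FPKM with Dox (log2 fold change 0.56, limma adjusted p = 0.0201, passing in 10 of 15 alternatives). Its values were higher in all 3 libraries with Dox, in which Abca1 was lower. The other LXR targets listed, Mylip, Lpcat3, Apoe, Pltp and Arl4c, had log2 fold changes between -0.11 and 0.38, and none passed. Of the 16 genes that use isoprenoids, Dolk, the dolichol kinase, fell from 17.9 ± 0.781 to 14.9 ± 0.834 FPKM (-0.26, 0.0461) and the others did not pass. The Dolk call held in 5 of 15 alternatives and was lost when any single library was left out, with adjusted p between 0.0574 and 0.135.

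**Figure D4:**
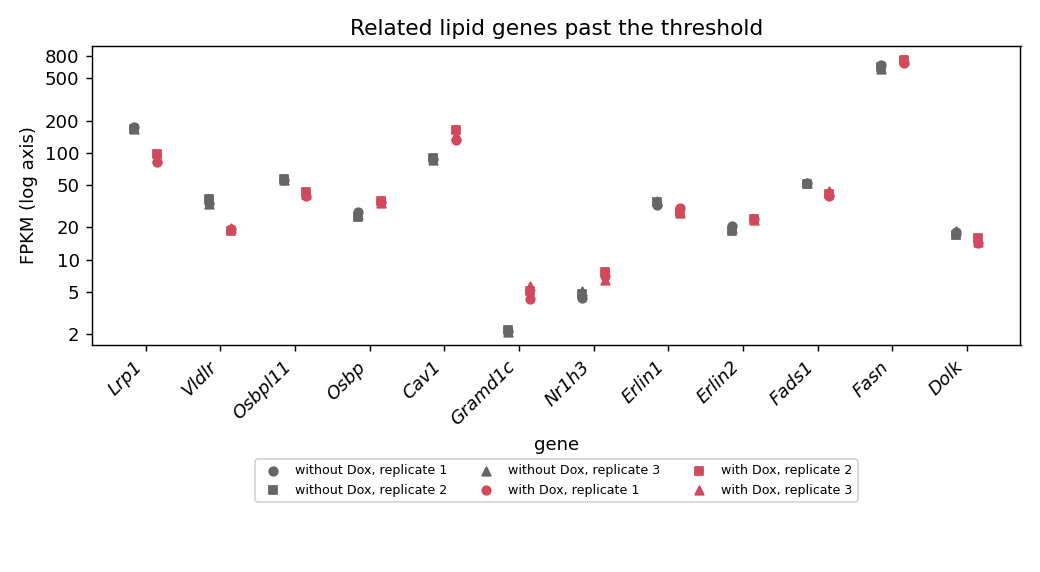
FPKM (log axis) in each library of 12 of the 15 related lipid genes that passed the threshold, up to the 3 of largest change per list and direction; grey points are libraries without Dox, red with Dox, and shapes are replicate numbers. Lrp1 and Vldlr show the widest gaps downward and Gramd1c the widest upward.

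Markers of other cells were read beside these results. The summed endothelial markers ran from 4.47 to 5.12 FPKM without Dox and from 4.19 to 4.55 FPKM with Dox, and the macrophage markers found in the table (3 of 4) from 6.48 to 11.4 and from 6.85 to 7.78 FPKM, nearly all of it Cd68. The adipocyte markers Adipoq and Plin1 were at 0 in all libraries, and the remaining marker Fabp4 fell from 12.7 ± 1.44 to 6.82 ± 1.57 FPKM (limma adjusted p = 0.0177). The fibroblast sum ran from 18.6 to 19.7 and from 14.6 to 16.8 FPKM, and its main gene Pdgfra fell from 18.6 ± 0.212 to 15.5 ± 1.03 FPKM (adjusted p = 0.041), with Lum at 0. Fabp4 and Pdgfra moved in the same direction as Npc1, Npc2 and Abca1, and their part in those results was not tested. The libraries came from a single clone in culture, so these values are read as expression in the carcinoma cells and not as shares of other cell types. In bulk RNA, fewer expressing cells of the clone and less RNA per cell cannot be told apart.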

How the data were processed

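mRNA of Met-1 TripZ-200c cells without and with Dox was sequenced by the authors as single stranded-kit reads, mapped with gSNAP and quantified with Cufflinks, and the deposited values are FPKM per gene and library. The build of the processing notes is GRCm38.p6; an FVB/NJ assembly that the methods also name was not used here. The deposited group means, fold changes, p-values and q-values were not used, and 0 columns of per-sample values were left unused. Groups and replicate numbers came from the sample labels.

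The table had 43611 rows, from which 63 repeated rows were dropped (keeping the row of highest mean), and the placeholder 999999999 in 6 cells of 4 genes was treated as missing. All 37 mitochondrial genes listed were at 0, so a 0 need not mean absence. After a filter that required 1 FPKM on average across the 6 libraries, log2(FPKM + 0.1) was fitted by limma 3.58.1 (R 4.3.3) with lmFit and eBayes with trend, using group as the sole term, with two-sided p-values adjusted by the Benjamini-Hochberg method over all 12879 genes and a threshold of 0.05. A fold on this scale understates changes of low genes. For genes that the filter removed, an unfiltered fit of the model was used. The depth is unknown in reads, so no counting interval was given.

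All 29 members are named, and from each related list the genes past the threshold, at most the 3 of largest change per direction; Lipa, Scarb1, the LXR targets and the oxysterol-binding proteins were named besides. The members and lists were chosen with earlier results of these data known. Sequences are those of GRCm38.p6 and RefSeq, and 3′ UTRs those of GENCODE. Shared sequence was found with BLAST 2.17.0, and lists of shared loci hold those over 10% of the longest transcript. Alternatives changed the pseudocount, filter, normalization, variance model, replicate block and threshold, or left out each library, and 15 of the 17 refitted the model. The fit was tested on simulated data. Plots used Python 3.11.15 with pandas 2.3.3, numpy 2.4.6 and matplotlib 3.10.9.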

Additional observations from a re-analysis of the deposited data

How the results depend on the processing

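The count of all genes past the threshold, 1935, was 770 at an adjusted p of 0.01, 452 with a minimum change of 1.5-fold, and 1069 to 1384 when a library was left out. The count of higher members was 1, Dhcr7. It became 0 without the trend, in the unmoderated model on log2(FPKM + 1), at the adjusted p of 0.01 and with the 1.5-fold minimum. When a library was left out it was 0 to 2, the 2 being Dhcr7 and Hmgcs1 without replicate 1 with Dox. Without replicate 2 with Dox, and with the replicate block, the 1 higher member was Insig2 and not Dhcr7. The 3 members that were lower became 1 (Npc1) at the adjusted p of 0.01 and with the 1.5-fold minimum, 2 without the trend and in the unmoderated model (Npc1 and Npc2), and 1 to 3 when a library was left out. The 15 related genes became 9 in the unmoderated model, 9 with the replicate block, 7 at the adjusted p of 0.01, 4 with the 1.5-fold minimum and 7 to 11 when a library was left out. The median log2 fold change of the members stayed between 0.01 and 0.12.

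The groups share replicate numbers. Libraries of equal number showed only small correlations across genes in how they deviated (0.0287, 0.0359 and -0.00759 for replicates 1, 2 and 3). Replicates 1 and 2 without Dox each correlated best with their own number. Replicate 3 without Dox did not, and its highest value was 0.023, with replicate 1 with Dox. With 3 libraries per group, such small values cannot decide whether the numbers mark pairs. With the replicate number as a block, 1337 genes passed (10.4%), 1269 of them also without it. Among members, Insig2 passed (adjusted p = 0.012), Npc1 and Npc2 passed, and Dhcr7 and Abca1 did not (0.0598 and 0.0623).

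The log2 fold change crossed 0 when single libraries were left out in 11 members, none of which had passed, with ranges of -0.00 to 0.26 for Acat2, -0.02 to 0.13 for Pmvk, -0.07 to 0.17 for Mvd, -0.40 to 0.18 for Tm7sf2, -0.08 to 0.02 for Hsd17b7, -0.16 to 0.07 for Ebp, -0.11 to 0.01 for Srebf1, -0.04 to 0.02 for Scap, -0.07 to 0.05 for Insig1, -0.04 to 0.11 for Stard4 and -0.13 to 0.22 for Soat1. Insig1, at 0.00 in all libraries, also changed sign within rounding (-0.00) under quantile normalization. In all, 429 member values under an alternative kept their direction and side of the threshold, 25 lost the call and 3 gained it. The causes were not tested. With 3 libraries per group and FPKM alone, read depth behind the low genes Idi1, Tm7sf2 and Abcg1 is unknown.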
